A study of Mus musculus with 12 samples.

Results

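The genes described here are 10 genes of insulin and insulin-like growth factor (IGF) signalling, picked by gene symbol from the 24470 genes of the count table, namely the ligand Igf1, the receptors Igf1r and Insr, the adaptors Irs1 and Irs2, and the binding proteins Igfbp2, Igfbp3, Igfbp4, Igfbp5 and Igfbp7. The imprinted genes Igf2 and Igf2r were left out by this choice. Whole testes were collected from mouse embryos at E14.5, and RNA of 3 pooled testes made up each library. Control embryos (Nr2f2 f/f) carried the floxed Nr2f2 alleles without Cre, and cKO embryos (Wt1 CreER x Nr2f2 f/f) carried the same alleles with a tamoxifen-dependent Cre expressed from the Wt1 locus, which is active in Sertoli cells as well as in interstitial progenitors. In the study, the pregnant females received tamoxifen before E14.5. There were 6 control and 6 cKO pools, so the comparison asks how RNA of these genes in the whole testis differed after deletion of Nr2f2, a nuclear receptor of interstitial cells. Only cKO embryos carried Cre at the Wt1 locus, so its presence and the deletion cannot be told apart here.

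IGF1 and IGF2 signal through the IGF1 receptor, and insulin through the insulin receptor, both of which are tyrosine kinases. The activated receptors recruit IRS adaptors, which pass the signal on to PI3 kinase, AKT and mTOR. IGF binding proteins are secreted proteins that hold IGFs outside the cell, where they can limit or prolong access of the ligand to its receptor. In the fetal gonad, insulin and IGF receptors are known to act in sex determination and in the proliferation of somatic cells.

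Counts per library ran from 7044531 to 59404778. Levels are CPM, counts relative to the size of the library, after TMM scaling of library sizes in edgeR, and SE stands for standard error throughout. Nr2f2 itself had 163 to 186 CPM in control pools and 50.2 to 119 CPM in cKO pools, with cKO replicate 5 the lowest and cKO replicate 2 the highest of the latter, so part of the Nr2f2 RNA remained in every cKO pool. Testis cell types were represented, since the summed CPM of Sertoli cell markers was 663 to 1121 in control and 638 to 1121 in cKO pools, and that of germ cell markers 881 to 1461 and 1243 to 1539. Control replicate 1 and cKO replicates 3, 5 and 6 stood apart. In these 4 libraries Xist, the RNA of the inactive X chromosome, had 304 to 891 CPM, against 5.16 to 7.68 CPM in the other 8. The summed CPM of ovarian markers (Foxl2, Fst, Irx3 and Bmp2) was 169 in control replicate 1 and 73.7, 118 and 109.9 in cKO replicates 3, 5 and 6, and at most 20.9 in the others. For each of the 10 genes the log2 fold change is therefore also given without these 4 libraries.

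All 10 genes passed the filter on low counts. Of these, 3 were lower in cKO testes at an adjusted p under 0.05 by edgeR's quasi-likelihood test, none was higher, and 7 did not pass the threshold. DESeq2 also called none higher, and none was higher at an unadjusted p under 0.05, while Igfbp2 and Irs1 were lower at that level without passing the adjusted threshold. Over all 15572 genes tested, 8.13% passed this threshold. Those lower in cKO testes were 4.85% and those higher 3.28% of all genes tested. The 3 genes that fell, Igfbp3, Igfbp4 and Igfbp5, all encode binding proteins. The ligand, receptors and adaptors had log2 fold changes (cKO relative to control) between -0.20 and 0.09. The median over the 10 genes was -0.19, against 0.003 over all genes tested, and 8 of 10 values were negative, against 49.4% of all genes tested.

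**Figure D1:**
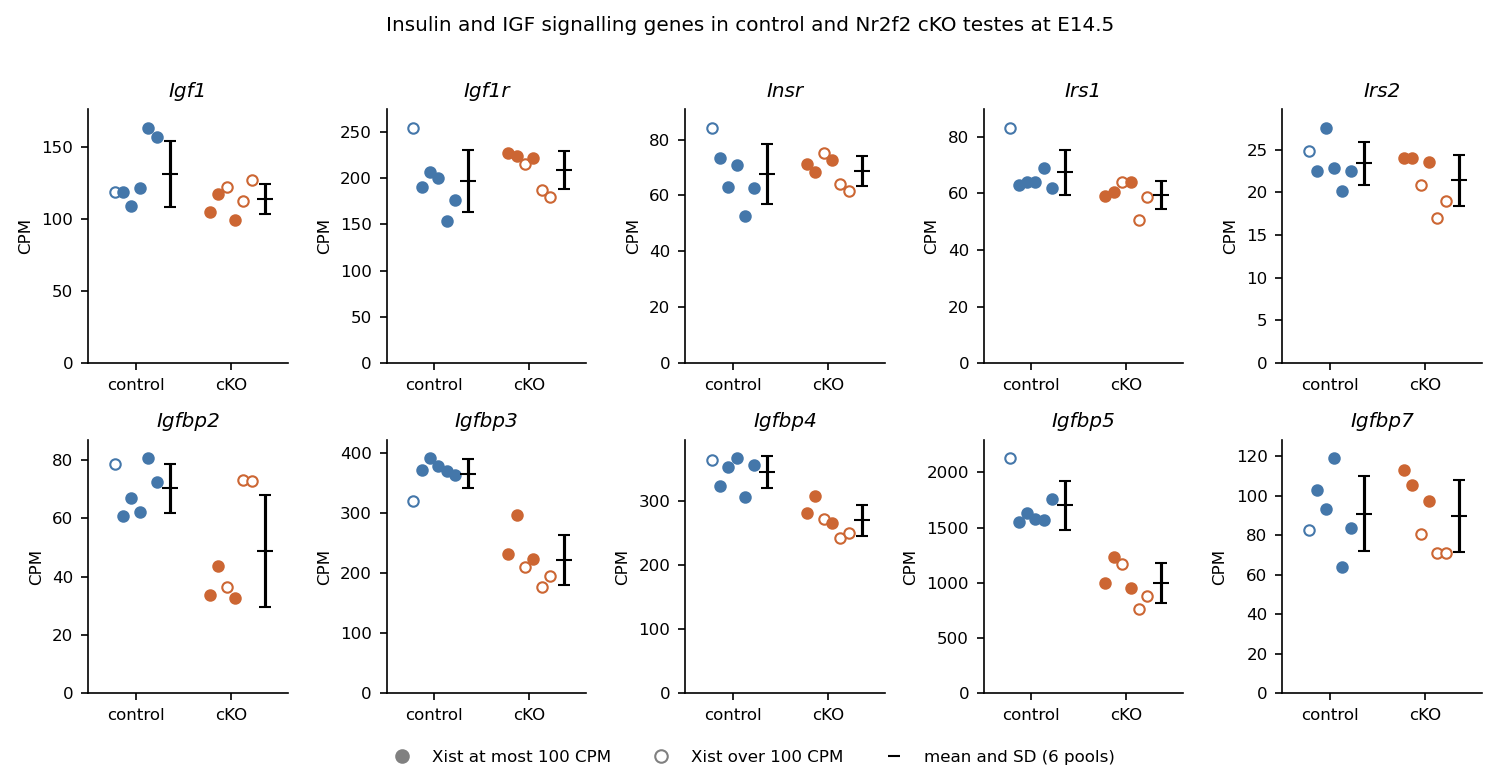
CPM of each gene (vertical axes, linear from 0) in the 6 control and 6 cKO pools, ordered by replicate number from left to right, with mean and SD beside the points and open points for the 4 libraries with Xist over 100 CPM. Igfbp3 and Igfbp5 show no overlap between groups, and Igfbp2 shows 4 cKO pools under 45 CPM and the other 2 near 73 CPM.

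The promoters of the 3 genes that fell are shown first, with that of Igfbp7, a binding protein without a call, for comparison. Each sequence runs 5′ to 3′ on the strand of the gene from 250 bases before to 50 bases after the start site, is taken from RefSeq (GRCm38.p6, the assembly of mm10), and was matched by Entrez Gene number, using the entry nearest to the gene start. Capitals mark 3 motifs on either strand, which are AGGTCA, the half-site of many nuclear receptors, the TATA box motif written as TATAAA, and the GC box GGGCGG. In order, the windows are chr11:7213874-7214173 (minus strand), chr11:99040994-99041293 (plus), chr1:72874816-72875115 (minus) and chr5:77407996-77408295 (minus).
Igfbp3: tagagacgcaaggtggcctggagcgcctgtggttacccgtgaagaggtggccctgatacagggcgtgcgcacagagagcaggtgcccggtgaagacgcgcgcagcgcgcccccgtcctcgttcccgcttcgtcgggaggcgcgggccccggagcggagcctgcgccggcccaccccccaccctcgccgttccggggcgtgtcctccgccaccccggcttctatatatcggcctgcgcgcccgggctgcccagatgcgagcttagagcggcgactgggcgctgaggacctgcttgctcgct
Igfbp4: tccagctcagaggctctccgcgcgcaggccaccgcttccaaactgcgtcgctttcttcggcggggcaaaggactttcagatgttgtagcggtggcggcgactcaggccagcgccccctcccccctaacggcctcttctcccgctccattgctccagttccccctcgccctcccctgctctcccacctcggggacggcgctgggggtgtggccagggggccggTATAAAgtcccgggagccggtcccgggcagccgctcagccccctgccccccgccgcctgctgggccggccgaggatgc
Igfbp5: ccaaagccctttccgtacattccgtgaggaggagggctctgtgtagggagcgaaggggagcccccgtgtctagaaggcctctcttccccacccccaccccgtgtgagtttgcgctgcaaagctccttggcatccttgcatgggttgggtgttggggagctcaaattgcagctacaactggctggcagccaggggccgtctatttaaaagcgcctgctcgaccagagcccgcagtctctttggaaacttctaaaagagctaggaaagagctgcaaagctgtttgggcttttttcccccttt
Igfbp7: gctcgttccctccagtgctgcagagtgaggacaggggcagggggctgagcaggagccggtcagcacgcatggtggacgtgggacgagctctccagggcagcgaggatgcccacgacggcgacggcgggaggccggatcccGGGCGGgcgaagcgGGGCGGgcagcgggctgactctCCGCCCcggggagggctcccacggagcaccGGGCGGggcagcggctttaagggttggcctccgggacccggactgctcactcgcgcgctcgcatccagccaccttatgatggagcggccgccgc

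No AGGTCA was found in the promoters of the 3 genes that fell, nor was GGGCGG, and TATAAA was found in 1 of 3, that of Igfbp4, starting 28 bases before the start site (position -28). Of the 7 other genes, 6 had a promoter entry, and GGGCGG occurred in 5 of these 6 (Igf1r, Irs1, Irs2, Igfbp2 and Igfbp7). AGGTCA occurred in 2 of the 6, at position -161 of Igf1 and, on the opposite strand, at -86 of Igf1r. Among 32851 mouse promoter windows of the same length, 16.3% held AGGTCA, 13.6% TATAAA and 35.7% GGGCGG. The window of Igf1 starts from a RefSeq start site 2846 bp from the gene start of the count table. A motif absent from a window says only that these letters are not there.

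Igfbp5 (Entrez Gene 16011, chromosome 1 of mm10 from 72858065 to 72874865, minus strand) encodes the binding protein with the most RNA of the 10 genes in control testes per length of the longest transcript, though not of the shortest. Its level was 1553 CPM in the lowest control pool, 1602 at the median and 2125 in the highest, and 759.6, 974 and 1236 CPM in cKO pools. No cKO pool reached the lowest control pool. The mean of the control pools was 1701 ± 221 CPM and that of the cKO pools 999.9 ± 178 CPM (SD, n = 6), or -0.77 as log2 fold change (SE 0.12, edgeR adjusted p = 0.00119). The control value farthest from the rest was that of replicate 1, one of the 4 libraries with high Xist. Without those 4 libraries the log2 fold change was -0.60 and remained past the threshold (edgeR adjusted p = 0.00527).

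Igfbp3 (Entrez Gene 16009, chromosome 11 from 7206086 to 7213923, minus strand) encodes the main IGF carrier of adult serum. It had 319.9, 370.5 and 390.4 CPM as the lowest, median and highest control values and 176, 217 and 297 CPM in cKO pools, again without overlap. Its mean fell from 365 ± 24.1 to 222 ± 41.6 CPM (SD, n = 6), which as log2 fold change was -0.72 (SE 0.11, edgeR adjusted p = 0.000975). Without the 4 libraries with high Xist the value was -0.58 (edgeR adjusted p = 0.0064). In percent, Igfbp3 RNA fell by 39.2% and Igfbp5 RNA by 41.2%. Such separation of the groups was seen for 2 of the 10 genes, both lower in cKO pools, and for 5.52% of all genes tested, 3.13% with cKO below and 2.39% with cKO above.

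Igfbp4 (Entrez Gene 16010, chromosome 11 from 99041260 to 99052646, plus strand), which encodes a binding protein that the protease PAPP-A cleaves, fell by 21.8%. It had 306 to 367 CPM in control pools (median 355.5) and 243 to 309 CPM in cKO pools (median 268.5). In 5 of 6 cKO pools the level was under every control, and the highest cKO value, in replicate 2, lay just above the lowest control value, in replicate 5. On the log2 scale the difference was -0.35 (SE 0.07, edgeR adjusted p = 0.00749). It was -0.26 without the 4 libraries with high Xist, which no longer passed the threshold (edgeR adjusted p = 0.0929).

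The 3 genes that fell had their cKO extremes in the same libraries as Nr2f2. The highest cKO value of Igfbp3, Igfbp4, Igfbp5 and Nr2f2 was in cKO replicate 2 for each gene, and the lowest was in cKO replicate 5. Summed CPM of 4 interstitial markers (Pdgfra, Tcf21, Fat3 and Lama2) had the same extremes, with 790.5 in cKO replicate 2 and 452 in cKO replicate 5, and 780.5 to 988 in control pools. The contractile and fetal Leydig cell marker sums had their highest and lowest cKO values in the same libraries, with 280.0 and 179 CPM and with 1745 and 841.5 CPM. Single markers did not all share these extremes. The highest cKO value of Pdgfra, Hsd3b1, Star and Insl3 was in replicate 1, and the lowest of Fat3 and Lama2 in replicate 6. Myh11 was lowest in replicate 4 and highest in replicate 3. Irs1, Irs2 and Igfbp7, none of them called, were also lowest in cKO replicate 5, a library with high Xist and 7322959 counts. These orders were noticed after the values were seen.

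Of the 4 interstitial markers edgeR called 2 lower (Tcf21 and Lama2), 2 were not called (Pdgfra and Fat3) and none was called higher, the median being -0.595 on the log2 scale. DESeq2 called Pdgfra lower as well. All 5 contractile markers (Acta2, Myh11, Tagln, Cnn1 and Actg2) were called lower, from a summed 323 to 439.6 CPM in control to 179 to 280.0 CPM in cKO pools. Of 5 fetal Leydig cell markers 4 were called lower, with summed levels of 1561 to 2910 and 841.5 to 1745 CPM. Of 5 endothelial markers 1 (Tek) was called lower, with sums of 319 to 468 and 320.2 to 399 CPM. Of 6 Sertoli, 5 germ cell and 4 ovarian markers none was called by edgeR or DESeq2, or had an unadjusted p under 0.05. No marker in any of these lists was at 0 in a group mean. The part of these cell types in the lower binding protein RNA was not tested, and in whole testes fewer cells of a type and less RNA per cell cannot be told apart.

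Igfbp2 (Entrez Gene 16008, chromosome 1 from 72824480 to 72852474, plus strand) differed between cKO pools more than any other of the 10 genes. Its coefficient of variation was 39.3% among cKO pools and 11.8% among control pools. Control pools had 60.8 to 80.6 CPM. In cKO replicates 1, 2, 3 and 4 the level was 33.7, 43.8, 36.5 and 32.8 CPM, under every control, whereas cKO replicates 5 and 6 had 73.3 and 72.9 CPM, within the control range. The log2 fold change over all pools was -0.53 (95% interval -0.97 to -0.10), not past the threshold over all genes (SE 0.20, edgeR adjusted p = 0.119). It was -0.90 and past the threshold without the 4 libraries with high Xist (edgeR adjusted p = 0.00252), which leaves 5 control and 3 cKO pools, and -0.70 without cKO replicate 6 (edgeR adjusted p = 0.0422).

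The cKO replicates 5 and 6 also had the highest Stra8, a gene of meiotic entry in germ cells, with 87.7 and 73.6 CPM against 2.58 to 10.2 CPM in the other 10 libraries, and the highest ovarian marker sums among cKO pools. Control replicate 1 and cKO replicate 3, which had high Xist without high Stra8, had 78.5 and 36.5 CPM of Igfbp2. The part of these differences in the level of Igfbp2 was not tested. Igfbp2 and Igfbp5 are neighbours that point towards each other on chromosome 1, with 5590 bp and no other gene of the table between them, yet in cKO replicates 5 and 6 Igfbp5 was at 759.6 and 885 CPM, the lowest values of all 12 libraries.

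Igfbp7 (Entrez Gene 29817, chromosome 5 from 77349240 to 77408045, minus strand), which encodes a secreted protein of the vessel wall that binds IGFs weakly, showed no detectable shift. It had 63.7 to 119 CPM in control and 70.8 to 113 CPM in cKO pools, and its log2 fold change was -0.02 (SE 0.15, edgeR adjusted p = 0.954). The 95% interval ran from -0.34 to 0.30, so a change smaller than this was not detectable. All cKO pools lay within the control range. Without the 4 libraries with high Xist the value was 0.19, in the opposite direction (edgeR adjusted p = 0.442).

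**Figure D2:**
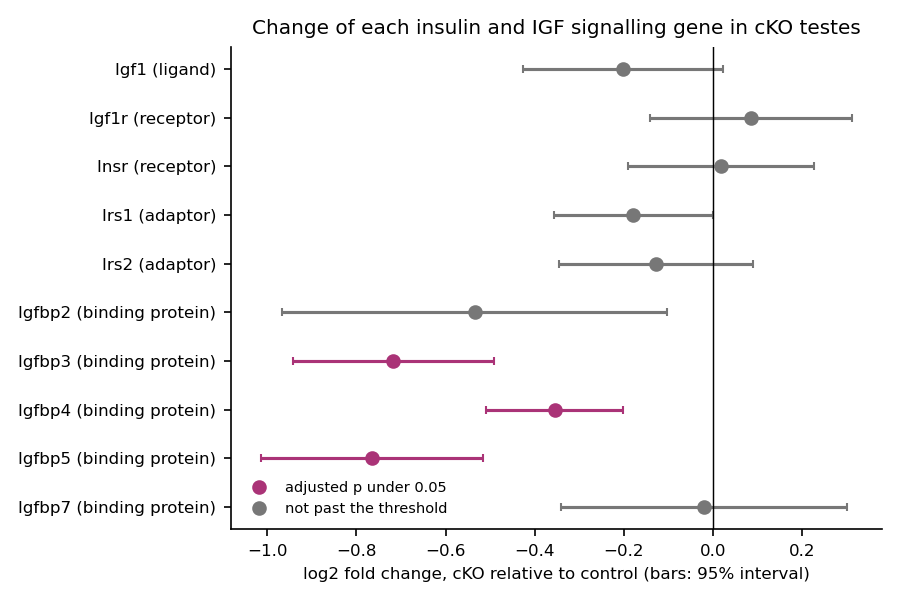
Log2 fold change of each gene in cKO relative to control testes (horizontal axis) with its 95% interval, from the edgeR fit over 15572 genes. The binding proteins Igfbp3 (-0.72), Igfbp4 (-0.35) and Igfbp5 (-0.77) passed the threshold, and the values of ligand, receptors and adaptors lie between -0.20 and 0.09.

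Igf1 (Entrez Gene 16000, chromosome 10 from 87858265 to 87937047, plus strand), the secreted ligand, had 109 to 163 CPM in control pools (median 120.3) and 99.7 to 128 CPM in cKO pools (median 115). The 2 highest control values, 163 CPM in replicate 5 and 157 CPM in replicate 6, lay above every cKO pool, while 2 of 6 cKO pools lay under every control. The log2 fold change of -0.20 did not pass the threshold (SE 0.10, 95% interval -0.43 to 0.02, edgeR adjusted p = 0.243). It was -0.12 without control replicate 5 and -0.31 without the 4 libraries with high Xist, neither past the threshold (edgeR adjusted p = 0.462 and 0.163).

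Igf1r (Entrez Gene 16001, chromosome 7 from 67952257 to 68233667, plus strand) had 154 to 254 CPM in control and 179.5 to 227 CPM in cKO pools. The cKO values lay wholly within the control range, and the log2 fold change was 0.09 (SE 0.11, 95% interval -0.14 to 0.31, edgeR adjusted p = 0.638). The same held for Insr (Entrez Gene 16337, chromosome 8 from 3150922 to 3279617, minus strand), with 52.8 to 84.1 CPM in control and 61.4 to 75.2 CPM in cKO pools and a log2 fold change of 0.02 (SE 0.10, 95% interval -0.19 to 0.23, edgeR adjusted p = 0.925). The control extremes of both receptors were in the same libraries, replicate 5 at the low end and replicate 1 at the high end. This was not particular to the receptors, since other pathway genes such as Akt1, Pik3cb and Inpp5d had the same control extremes. Without the 4 libraries with high Xist the log2 fold changes were 0.28 for Igf1r (edgeR adjusted p = 0.0949) and 0.13 for Insr (0.388).

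The adaptor Irs1 (Entrez Gene 16367, chromosome 1 from 82233105 to 82291439, minus strand) had 61.7 to 83.0 CPM in control and 50.5 to 64.2 CPM in cKO pools. In 4 of 6 cKO pools it was under every control, but its log2 fold change was -0.18 and did not pass the threshold over all genes (SE 0.08, 95% interval -0.36 to -0.00046, edgeR adjusted p = 0.197). Control replicate 1 held the highest value, and without it the change was -0.11. Without all 4 libraries with high Xist it was -0.06 (edgeR adjusted p = 0.57). Irs2 (Entrez Gene 384783, chromosome 8 from 10986961 to 11008430, minus strand) was the least abundant of the 10 genes, with 20.1 to 27.5 CPM in control and 17.0 to 24.1 CPM in cKO pools. Its log2 fold change was -0.13 (SE 0.10, 95% interval -0.35 to 0.09, edgeR adjusted p = 0.449), and 2 of 6 cKO pools, replicates 5 and 6, lay under every control. Both are among the 4 libraries with high Xist, without which the value was 0.045 (edgeR adjusted p = 0.793) and its direction was turned.

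To compare levels between genes, CPM were divided by the length of the longest coding transcript in kilobases (GENCODE M21, also on GRCm38). On this scale the order in control testes was Igfbp5 (283 ± 36.8 CPM per kb, SD, n = 6), Igfbp3 (151 ± 9.95), Igfbp4 (90.1 ± 6.46), Igfbp7 (75.7 ± 15.8), Igfbp2 (53.8 ± 6.35), Igf1 (18.7 ± 3.23), Igf1r (17.3 ± 2.95), Irs1 (7.37 ± 0.876), Insr (7.25 ± 1.15) and Irs2 (3.70 ± 0.398). Ranges of control pools overlapped between Igfbp4 and Igfbp7, between Igfbp7 and Igfbp2, between Igf1 and Igf1r, and between Irs1 and Insr, so these neighbours were not separated beyond their spread. The 5 binding proteins all stood above the ligand, receptors and adaptors. The order depends on which transcript is used for length: with the shortest coding transcript, Igfbp4 came first at 465 CPM per kb and Igf1, at 202, stood above Igfbp2 and Igfbp7.

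Summed over the 5 binding proteins, the level per length was 608 to 710.2 CPM per kb in control pools and 378 to 530.3 in cKO pools. The group means were 654 ± 34.6 and 441 ± 52.0 CPM per kb (SD, n = 6 pools each), and the groups did not overlap, as was also the case with the shortest transcripts. The composition of this sum was also compared. Igfbp5 took 43.2 ± 3.59% in control and 37.6 ± 3.37% in cKO pools, and Igfbp3 23.2 ± 2.40% and 20.7 ± 1.51%. Igfbp4, the least reduced of the 3 genes that fell, took 13.8 ± 0.532% in control and 16.0 ± 0.523% in cKO pools, without overlap. Igfbp7 took 11.6 ± 2.40% and 16.9 ± 2.47%, while its own level in cKO pools lay within the control range. Igfbp2 took 8.24 ± 1.06% in control and 8.77 ± 4.27% in cKO pools, a mean over unlike pools. Its share was under every control in 4 cKO pools and above every control in cKO replicates 5 (14.85%) and 6 (13.67%). With the shortest transcripts Igfbp4 took the largest share, 41.7% in control and 46.1% in cKO pools, again without overlap, and Igfbp5 took 25.4% and 21.0%. These shares are descriptions and were not tested.

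**Figure D3:**
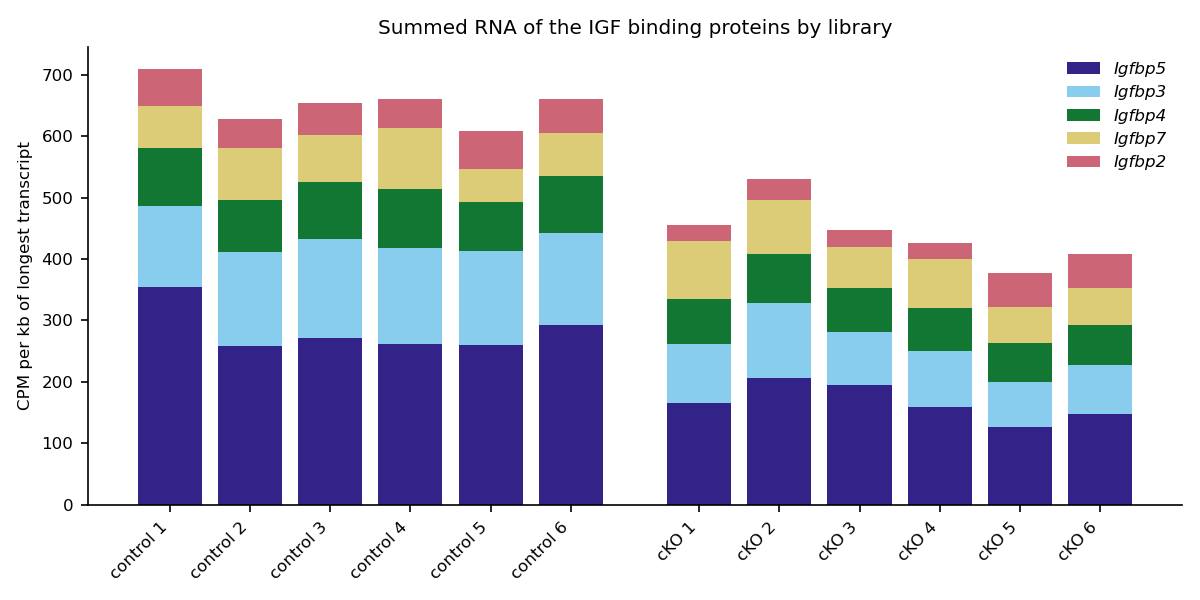
Summed level of the 5 binding proteins (vertical axis, CPM per kb of the longest coding transcript) in each of the 6 control and 6 cKO libraries, with 1 colour per gene. All cKO bars (378 to 530.3) end under the shortest control bar (608), mostly through smaller Igfbp5 and Igfbp3 segments.

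Ratios within a library overlapped between the groups. The ratio of the summed binding proteins to Igf1 was 26.3 to 42.2 in control and 22.6 to 31.8 in cKO pools, with 3 of 6 cKO pools under every control. With the shortest transcripts it was 4.10 to 6.71 and 3.755 to 5.175, with 2 of 6 cKO pools under every control. Igf1r exceeded Insr per length by 2.13 to 2.69 times in control and 2.35 to 2.68 times in cKO pools. Irs1 exceeded Irs2 by 1.61 to 2.36 times and 1.70 to 2.13 times. Both the receptor and the adaptor ratio in cKO pools thus lay within the range of control pools.

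The genes whose profile over the 12 libraries lay nearest to each gene that fell were found by the root mean square difference of centred log2 CPM, among the 14261 genes that averaged 1 CPM or more. For Igfbp3 these were Tmem38a (difference 0.053), Tpm2 (0.06) and Arap1 (0.084), against a median of 0.451 over all genes. Tpm2 encodes a tropomyosin of contractile cells. For Igfbp4 they were Fgfr1 (0.044), which encodes a fibroblast growth factor receptor, Pdlim4 (0.059) and Lmna (0.068), and for Igfbp5 Cyp2s1 (0.123), Nbl1 (0.127) and Palld (0.149). The measure keeps the difference between the groups, so genes with a like fold change lie near each other. Tmem38a, Tpm2 and Arap1 had log2 fold changes of -0.67, -0.75 and -0.67. This is a description of likeness with no test, and it does not give the cells that hold the RNA.

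The other genes of the pathway were examined as a list of 61 genes, of which 56 could be tested. Of these, 2 were lower and 3 were higher in cKO testes and 51 did not pass the threshold, and the median was 0.05 on the log2 scale. These 5 calls among 56 genes are a share near the 8.13% called over all genes, and the values that follow are those of single genes. The genes called lower were Igfbp6 and Insrr. Igfbp6, a binding protein that prefers IGF2, fell from 5.63 ± 0.456 to 3.28 ± 0.826 CPM (SD, n = 6), with a log2 difference of -0.75 (SE 0.16, edgeR adjusted p = 0.00855). Insrr, the insulin receptor-related receptor, which senses alkaline pH and binds no insulin, fell from 1.83 ± 0.611 to 0.557 ± 0.350 CPM, or -1.79 on the log2 scale (SE 0.33, edgeR adjusted p = 0.0043). Control and cKO pools did not overlap for either gene, at counts of 9 to 82 in control and 2 to 20 in cKO libraries for Insrr.

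The 3 genes called higher were Inpp5d, Igf2bp1 and Pik3cb. Inpp5d, a lipid phosphatase of blood cells that opposes PI3 kinase, rose from 6.82 ± 1.26 to 10.6 ± 1.00 CPM, or by 0.62 on the log2 scale (SE 0.12, edgeR adjusted p = 0.00644), with 6 of 6 cKO pools above every control. Summed CPM of 5 immune markers was likewise above every control in all cKO pools, 38.1 to 48.5 against 26.0 to 35.0, and Csf1r and Cx3cr1 of that list were called higher, while Adgre1, Fcgr1 and Ptprc were not called by edgeR. The pan-leukocyte marker Ptprc had a log2 fold change of -0.08 and overlapped between the groups. The part of immune cells in the rise of Inpp5d was not tested. Igf2bp1, which encodes an RNA-binding protein of Igf2 mRNA, had a log2 fold change of 0.41 (SE 0.10, edgeR adjusted p = 0.0245), and Pik3cb, a catalytic subunit of PI3 kinase, one of 0.33 (SE 0.09, 0.0298). When each of the 12 libraries was left out in turn, Pik3cb lost its call 8 times and Igf2bp1 4 times, although the log2 fold changes stayed between 0.28 and 0.36 for Pik3cb and between 0.343 and 0.485 for Igf2bp1. Pik3cb also lost it without the 4 libraries with high Xist, where its change was 0.285 (edgeR adjusted p = 0.114).

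The remaining pathway groups had no call by edgeR. These were 5 IGFBP proteases and their inhibitors (Pappa, Pappa2, Htra1, Stc1 and Stc2), 9 other adaptors, 6 FOXO and GSK3 genes, 11 genes of the mTOR branch and 4 genes of growth hormone input. At an unadjusted p under 0.05, edgeR gave Pappa2 as lower and Htra1 as higher in the first group, no adaptor, no FOXO or GSK3 gene, 1 mTOR gene (Rps6kb1, lower) and 1 growth hormone gene (Stat5a, higher), and DESeq2 called only Htra1 among these groups. Values of the protease group ranged from -0.63 for Pappa2 (edgeR adjusted p = 0.137) to 0.37 for Htra1 (0.0566), which cleave binding proteins. The FOXO and GSK3 genes kept within -0.01 and 0.15 and the mTOR branch within -0.16 and 0.19 on the log2 scale. Among 15 genes of PI3 kinase, AKT and their brakes, 13 did not pass the threshold. Of these 13, Pik3r3, a regulatory subunit of PI3 kinase (log2 fold change 0.34, edgeR adjusted p = 0.0717), and Ptpn1, a phosphatase of the insulin receptor (0.25, 0.173), were higher at an unadjusted p under 0.05, and Pik3r3 was called by DESeq2. Beside Igf2bp1, the IGF mRNA-binding gene Igf2bp3 was higher at that unadjusted level (0.20, edgeR adjusted p = 0.116). In 5 of 6 cKO pools Igf2bp3 was above every control. Ins1, Ins2, Igfbp1, Igfals and Irs3 were too low to be tested, with no count of Ins1 in any library and a mean of at most 0.448 CPM in either group for the others. Igfbp1 lies 3539 bp from Igfbp3, pointing towards it, and its highest level was 1.95 CPM, in control replicate 1.

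**Figure D4:**
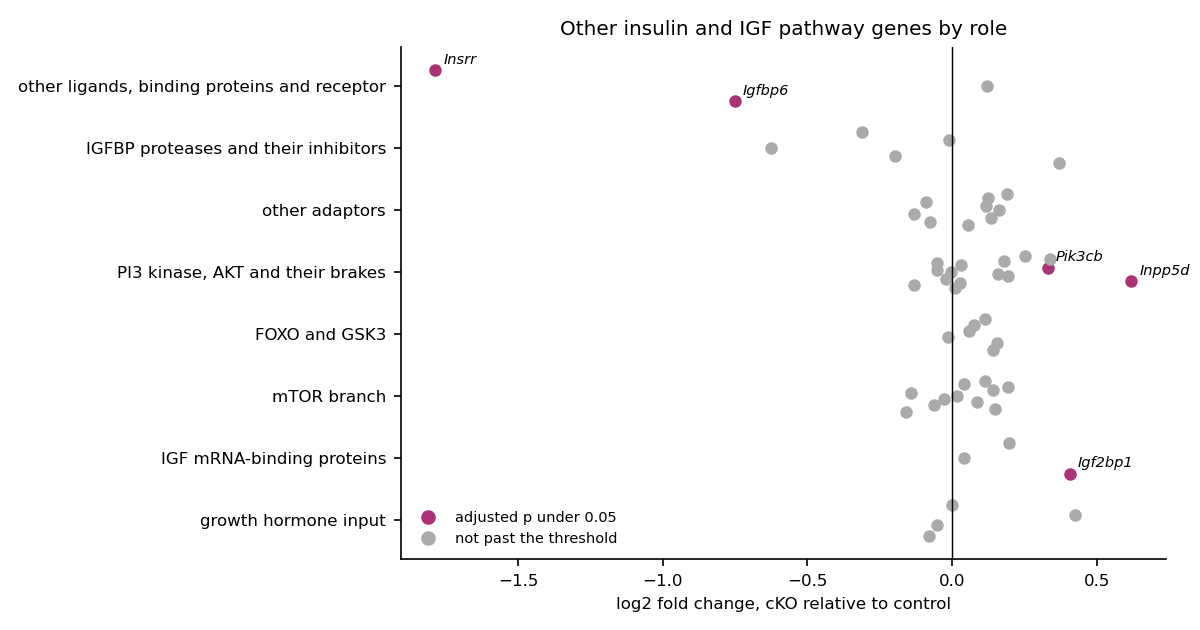
Log2 fold change in cKO relative to control testes (horizontal axis) of the 56 other pathway genes that could be tested, grouped by role, with 1 point per gene and names beside the genes that passed the threshold. The 2 genes called lower belong to the group of binding proteins and receptors, and 2 of the 3 called higher to the PI3 kinase group.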

How the data were processed

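RNA was measured in 12 libraries, each from 3 pooled testes. Per the methods and processing notes, the authors trimmed read pairs (Trim Galore 0.6.7), aligned them to mm10 (STAR 2.5) and counted them by strand with featureCounts on RefSeq gene models, and the deposited values are raw counts per gene. The analysis used edgeR 4.0.16 (R 4.3.3) with TMM scaling, filterByExpr (minimum count 10, minimum total 15), glmQLFit and glmQLFTest with no covariate, and Benjamini-Hochberg adjustment over 15572 genes with a threshold of 0.05. Standard errors are the log2 fold change divided by the square root of F. Nothing says how pools relate to litters, so p-values measure the spread between these pools. The genes, pathway list and marker lists were chosen with earlier results of these data known, and some genes of these lists are not reported here. All 10 genes were named, and of the pathway list the called genes (at most 6 in each direction). Alternatives were DESeq2 1.42.0 (the authors' tool), limma-voom (limma 3.58.1), other scalings and filters, a replicate block, leaving out each library, and a fit without the 4 libraries above 100 CPM of Xist. The fits were tested on simulated data. No pair of libraries was identical. Irs2 and Igfbp7 each overlap a gene on the opposite strand, and strand-specific counting separates these.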

Additional observations from a re-analysis of the deposited data

Results flagged for a closer look

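Chance marks about 1 in 20 groups as holding a value far from the rest, and 20 groups of 6 pools were examined, of which 2 were marked. Both were values of control replicate 1, the control library with high Xist. Irs1 had 83.01 CPM there against 68.8 CPM in the next control pool, and Igfbp5 had 2125 CPM against 1756 CPM. Without this library the log2 fold change was -0.11 for Irs1 (edgeR adjusted p = 0.245) and -0.69 for Igfbp5 (edgeR adjusted p = 0.00109).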

How the results depend on the processing

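Of the 20 alternatives, Igfbp3 and Igfbp5 were called lower in all 20 (log2 fold changes from -0.82 to -0.58 and from -0.84 to -0.60) and Igfbp4 in 19, losing its call without the 4 libraries with high Xist. Igfbp2 was called in 2 of 20, and the ligand, receptors, adaptors and Igfbp7 in none. With each library left out in turn, 3 or 4 of the 10 genes were called lower. Insr was negative in 4 of 20 alternatives, Irs2 in 19 and Igfbp7 in 14. The count of pathway genes called higher, 3 over all libraries, was 5 with DESeq2, 2 with the replicate block, 2 without the 4 libraries with high Xist, and from 1 (leaving out control replicate 6 or cKO replicates 1 or 4) to 7 (without control replicate 1) when 1 library was left out. The 2 pathway genes called lower stayed at 2 in every alternative. The cause of these differences was not tested. Deviations of pools with the same replicate number correlated between -0.334 and 0.242. This gave no sign that the numbers pair the pools, but low correlation cannot exclude a shared litter or batch. With the replicate block Igfbp3, Igfbp4 and Igfbp5 kept their calls, with adjusted p up to 0.0173, Igfbp2 was just outside the threshold (0.0501), and Pik3cb (0.0876) lost its call. The share of all genes called, 8.13% over all libraries, was 5.98% with the block, 11.6% with DESeq2, and from 5.24% (cKO replicate 4 left out) to 19.9% (control replicate 1 left out) when 1 library was dropped. Lengths of the shortest transcript moved the control means of Igf1, Igfbp2, Igfbp3 and Igfbp4 per length, all shares, the summed binding proteins (from 654 to 1115 CPM per kb) and their ratio to Igf1 (from 35.95 to 5.66). The effect of depth was not tested, and the fewest counts behind a call were those of Insrr (2 to 20 in cKO libraries).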
